A study of Xenopus tropicalis with 12 samples.

Results

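The dependence of the thyroid hormone response on thyroid hormone receptor α (TRα) was measured in the hind limb of Xenopus tropicalis tadpoles. The comparison used every library of the series, 12 of 12, in 4 groups of 3: TRα (-/-) with 10 nM T3 for 18 hours, TRα (-/-) without T3, wild type (WT) with 10 nM T3 for 18 hours, and WT without T3. Per the labels, tadpoles of both genotypes shared their parents, and per the methods the knockouts came from crosses of TRα (+/-) frogs. The methods also give a supplier for wild-type animals, without saying whether the WT tadpoles descended from them. All tadpoles were at stages 52 to 54, the receptor TRβ remaining in the knockout. Hind limb RNA of several tadpoles was merged for each group and made into 3 libraries, so a group is 1 RNA pool, and each p-value measures pools only against the spread of libraries made from them, which is technical. The quantity of interest is the interaction, which is the T3 change (log2) of TRα (-/-) less the one of WT. It is negative where a gene responded less upward (or more downward) without TRα and positive in the other case.

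TRs are nuclear receptors that bind T3 response elements in DNA, mostly as heterodimers with retinoid X receptors. Without hormone they recruit corepressor complexes and hold inducible genes down, and with T3 they exchange these for coactivators. In frogs T3 drives metamorphosis, during which the limb grows and differentiates, and TRβ is itself a T3-inducible gene. A knockout can therefore alter a T3 response by its level before the hormone, by its level after it, or by both, which the interaction alone does not separate. The deposited gene identifiers are not paired with symbols here except on the mitochondrial sequence, so nuclear genes are given by identifier and position (JGI 4.2 scaffolds, deposited file), and neither the targeted gene nor hind limb markers were examined.

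Total counts per library ran from 32649742 to 52430305, and 14320 of 19921 genes were tested. Libraries of a pool differed little, with a common biological coefficient of variation (BCV) of 0.0421. WT with T3, replicate 2, stood apart: 7 genes of at least 5 CPM (counts scaled to library size with TMM factors) lay at least 4-fold above both other libraries of that pool, and no other library had such a gene. Without it, and counting only genes tested with all 12 libraries, the calls described next numbered 4898 in place of 4906, with 4770 in common. The 25 named genes other than ENSXETG00000033425 had edgeR adjusted p-values of 1.67e-08 or less for the interaction, and each ± beside an interaction is its SE between libraries.

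The T3 response differed between genotypes for 4906 of 14320 genes, 34.3% of those tested (edgeR quasi-likelihood test, Benjamini-Hochberg adjusted p under 0.05 and a difference of 2-fold or more, referred to as called). The interaction was positive for 2529 (17.7%) and negative for 2377 (16.6%). For comparison, T3 alone was called at 16.8% of the genes in TRα (-/-) and 47.9% in WT, and genotype at 15.2% with T3 and 20.3% without T3. In bulk RNA, fewer cells of a type and less RNA per cell cannot be told apart. Differences of 4-fold or more numbered 1458, those of 8-fold or more 529 and those of 16-fold or more 175. Large interactions rested more often on low counts: 4028 of the 4906 genes but 57 of the 175 had at least 10 counts in every library, and 36 of the 175 had a group with under 3 counts in total, where a fitted fold has no firm size. The balance of signs followed the scaling, since total counts alone gave 1523 positive (10.6%) and 3910 negative genes (27.3%) and placed the median interaction of all genes at -0.41, against 0.01 with TMM. TMM factors were 1.317 to 1.353 in the libraries of WT with T3 and 0.854 to 0.956 in all others, so the scalings differ most at that pool. The same sign was called under both scalings for 3900 genes, and no gene was called with opposite signs. If pools of 1 kind varied with a BCV of 0.4, which was assumed and not measured, 71 genes would be called. Among them are 12 of the 26 named genes, including ENSXETG00000033425, whose interaction rests on 1 library.

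**Figure D1:**
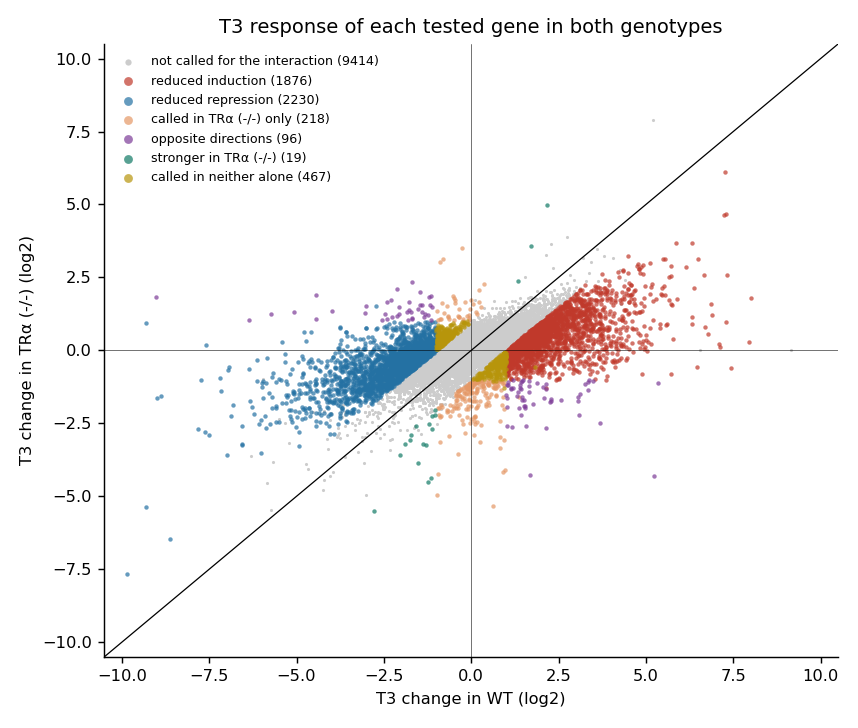
T3 change in TRα (-/-) (log2, vertical) against T3 change in WT (log2, horizontal) for each of the 14320 tested genes, coloured by response pattern with the number of genes, and the line of equal change. The 1876 genes of reduced induction lie below the line on the right and the 2230 of reduced repression above it on the left, most of them close to the horizontal axis.

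Most of the 4906 genes responded to T3 in WT and less, or not, in TRα (-/-). Reduced induction (raised in WT, interaction negative, not lowered in TRα (-/-)) held 1876 genes, 38.2%, and reduced repression (lowered in WT, interaction positive, not raised in TRα (-/-)) held 2230 genes, 45.5%. The median T3 change of the first set was 0.44 in TRα (-/-) and 2.20 in WT, and that of the second -0.41 in TRα (-/-) and -2.08 in WT, against medians over all genes of -0.02 in TRα (-/-) and -0.05 in WT (log2). The patterns were defined by these same changes, so the medians describe them and are no test. The estimate kept the direction of WT at most of these genes, and most did not pass the call. The log2 change in TRα (-/-) was a median of 20.5% of that in WT for reduced induction (quartiles 1.90% and 36.7%) and 19.4% for reduced repression (quartiles 4.57% and 34.2%). In TRα (-/-), 422 of the 1876 genes were still called as raised and 475 of the 2230 as lowered, where 7.14% of all tested genes were called as raised and 9.64% as lowered. The patterns used this change, so nothing is read from these shares. The estimate had the other direction at 439 of the 1876 and 436 of the 2230.

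The remaining patterns were small. In TRα (-/-) alone, 180 genes were called as lowered and 38 as raised, both with an interaction call. T3 changes were called in opposite directions at 96 genes. Of these, 56 were lowered in TRα (-/-) and raised in WT and 40 were raised in TRα (-/-) and lowered in WT. Levels at these 96 were low, with a median mean CPM of 1.06 against 11.7 over all tested genes. With at least 10 counts required in every library, 49 opposite genes were left. For 19 genes T3 was called in both genotypes in 1 direction with the stronger response in TRα (-/-), 16 lowered and 3 raised. Genes short of the call in WT are not in this number. Of the 218 genes called in TRα (-/-) only, the WT estimate had the other direction at 133 and the same direction at the rest. For 467 genes neither genotype passed the call by itself and only the difference did. Their T3 changes had opposite signs at 467 of 467. Where both changes are under 2-fold this follows by arithmetic, so it is no result. Without WT with T3, replicate 2, and without each other library in turn, the 6 patterns kept their order of size.

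**Figure D2:**
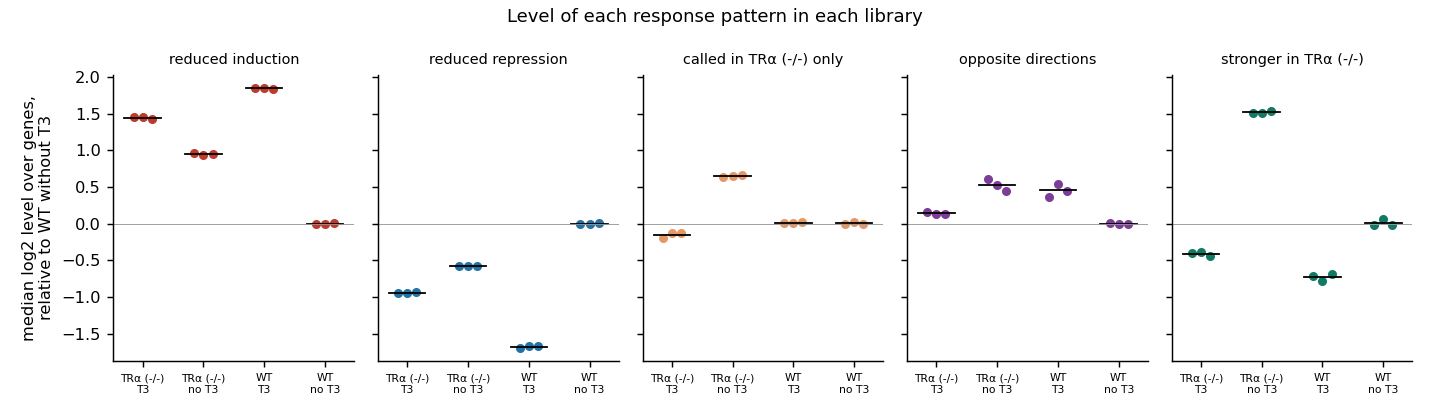
Median over the genes of each pattern of the log2 level (CPM plus 0.5) relative to WT without T3 (vertical). Values are given for each of the 12 libraries (points) with the group mean (lines). The pattern called in neither genotype alone is not drawn. For reduced induction the TRα (-/-) libraries without T3 lie at 0.94 to 0.96, between WT without T3 at 0 and WT with T3 at 1.84 to 1.85. The genes were chosen by these values, so the plot is a description.

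Of the genes of reduced induction with at least 5 CPM in the highest group and 10 counts in every library, the limits for named genes, ENSXETG00000024049 had the largest interaction (GL172650.1, 2314600 to 2317301, + strand, 5 exon blocks). It had 26.6, 25.3 and 25.4 CPM in the TRα (-/-) libraries with T3 and 38.1, 38.0 and 38.7 CPM in those without T3, against 38.6, 38.1 and 39.7 CPM in WT with T3 and 0.317, 0.541 and 0.460 CPM in WT without T3. The TRα (-/-) libraries without T3 overlapped those of WT with T3, and the WT libraries without T3 lay far below all others. The T3 change was -0.57 in TRα (-/-) and 6.45 in WT (log2), and the interaction was -7.02 ± 0.0987 (SE, edgeR adjusted p = 1.30e-26). ENSXETG00000025667 (GL172993.1, 931135 to 932667, - strand, 3 exon blocks) followed. Its CPM were 629, 632 and 628 in TRα (-/-) with T3, 1055, 1095 and 1149 in TRα (-/-) without T3, 24.1, 26.0 and 25.1 in WT with T3 and 0.507, 0.446 and 0.460 in WT without T3. Both TRα (-/-) pools were above both WT pools with no overlap, and T3 raised the gene in WT alone. The T3 change was 5.73 in WT and -0.80 in TRα (-/-) (log2), a fall short of the 2-fold limit. The interaction was -6.53 ± 0.0908. ENSXETG00000010074 (GL172807.1, 536684 to 553542, - strand, 7 exon blocks) still rose with T3 in TRα (-/-). Values of 20.2, 20.7 and 20.3 CPM with T3 and 9.47, 9.22 and 8.94 CPM without T3 in TRα (-/-) stood against 57.6, 52.8 and 53.1 CPM with T3 and 0.919, 0.605 and 0.562 CPM without T3 in WT. The 4 groups did not overlap, and the T3 change was 1.15 in TRα (-/-) and 6.30 in WT with an interaction of -5.16 ± 0.124. ENSXETG00000033425 (GL172981.1, 444357 to 444652, + strand, 1 exon block) was ranked here by 1 library. It had 3.53, 2.02 and 1.15 CPM in the TRα (-/-) libraries with T3 and 1.64, 2.82 and 2.51 CPM in those without T3, against 1.98, 97.7 and 0.778 CPM in WT with T3 and 1.14, 1.34 and 0.766 CPM in WT without T3. Without replicate 2 of WT with T3 its interaction was -0.38 and was not called, against -5.04 ± 2.06 (SE, edgeR adjusted p = 0.029) with it. It was also not called under DESeq2. In another single-library case, ENSXETG00000029221, chosen after its values were seen, the counts of WT with T3 were 1178, 73474 and 1073, and the interaction of -2.72 became 1.32 without replicate 2.

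Reduced repression held genes lowered by T3 in WT, with interactions of the other sign. Among called genes of at least 5 CPM in the highest group, with no minimum on counts, the largest positive interaction was that of ENSXETG00000022374 (GL172733.1, 2461879 to 2470299, - strand, 4 exon blocks), a gene whose span overlaps another in the file. Its CPM were 21.3, 21.0 and 20.7 in TRα (-/-) with T3, 64.9, 62.6 and 67.6 in TRα (-/-) without T3, 0.146, 0.217 and 0.272 in WT with T3 and 113, 109 and 111 in WT without T3. T3 left 7, 15 and 14 counts in the WT libraries, whereas the TRα (-/-) libraries kept 862, 842 and 647. By log2 the T3 change was -1.63 in TRα (-/-) and -9.00 in WT (log2), with an interaction of 7.37 ± 0.105 (SE, edgeR adjusted p = 1.36e-26). Among genes of reduced repression within both limits, ENSXETG00000012110 (GL172810.1, 268 to 8754, + strand, 6 exon blocks) came first. With T3, it had 1.14, 1.22 and 1.28 CPM in TRα (-/-) and 0.333, 0.232 and 0.233 CPM in WT, and without T3 1.74, 1.96 and 1.91 CPM in TRα (-/-) and 21.5, 21.4 and 21.8 CPM in WT. The TRα (-/-) libraries lay between the WT groups with and without T3, and the interaction was 5.72 ± 0.217. ENSXETG00000005203 (GL173380.1, 312650 to 358006, - strand, 43 exon blocks) was likewise low in TRα (-/-) before T3. Values of 2.72, 2.09 and 2.15 CPM with T3 and 2.40, 1.74 and 1.54 CPM without T3 in TRα (-/-) stood against 0.562, 0.550 and 0.486 CPM with T3 and 13.6, 15.6 and 13.7 CPM without T3 in WT. The TRα (-/-) groups overlapped each other, and the interaction was 5.05 ± 0.218. ENSXETG00000000784 (GL173197.1, 227051 to 230999, - strand, 4 exon blocks) was the best counted of the genes listed here. It had 65.7, 66.1 and 66.9 CPM in the TRα (-/-) libraries with T3 and 134, 139 and 141 CPM in those without T3, against 7.61, 6.92 and 7.68 CPM in WT with T3 and 464, 459 and 451 CPM in WT without T3. It fell in both genotypes, by a log2 change of -1.06 in TRα (-/-) and -5.95 in WT, and the interaction was 4.90 ± 0.0611. ENSXETG00000032984 (GL172670.1, 3050507 to 3052622, - strand, 3 exon blocks) followed the same order of groups. Its CPM were 3.46, 4.55 and 3.81 in TRα (-/-) with T3, 7.60, 10.1 and 8.14 in TRα (-/-) without T3, 0.291, 0.493 and 0.467 in WT with T3 and 28.4, 25.02 and 27.9 in WT without T3. Its interaction was 4.85 ± 0.203.

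**Figure D3:**
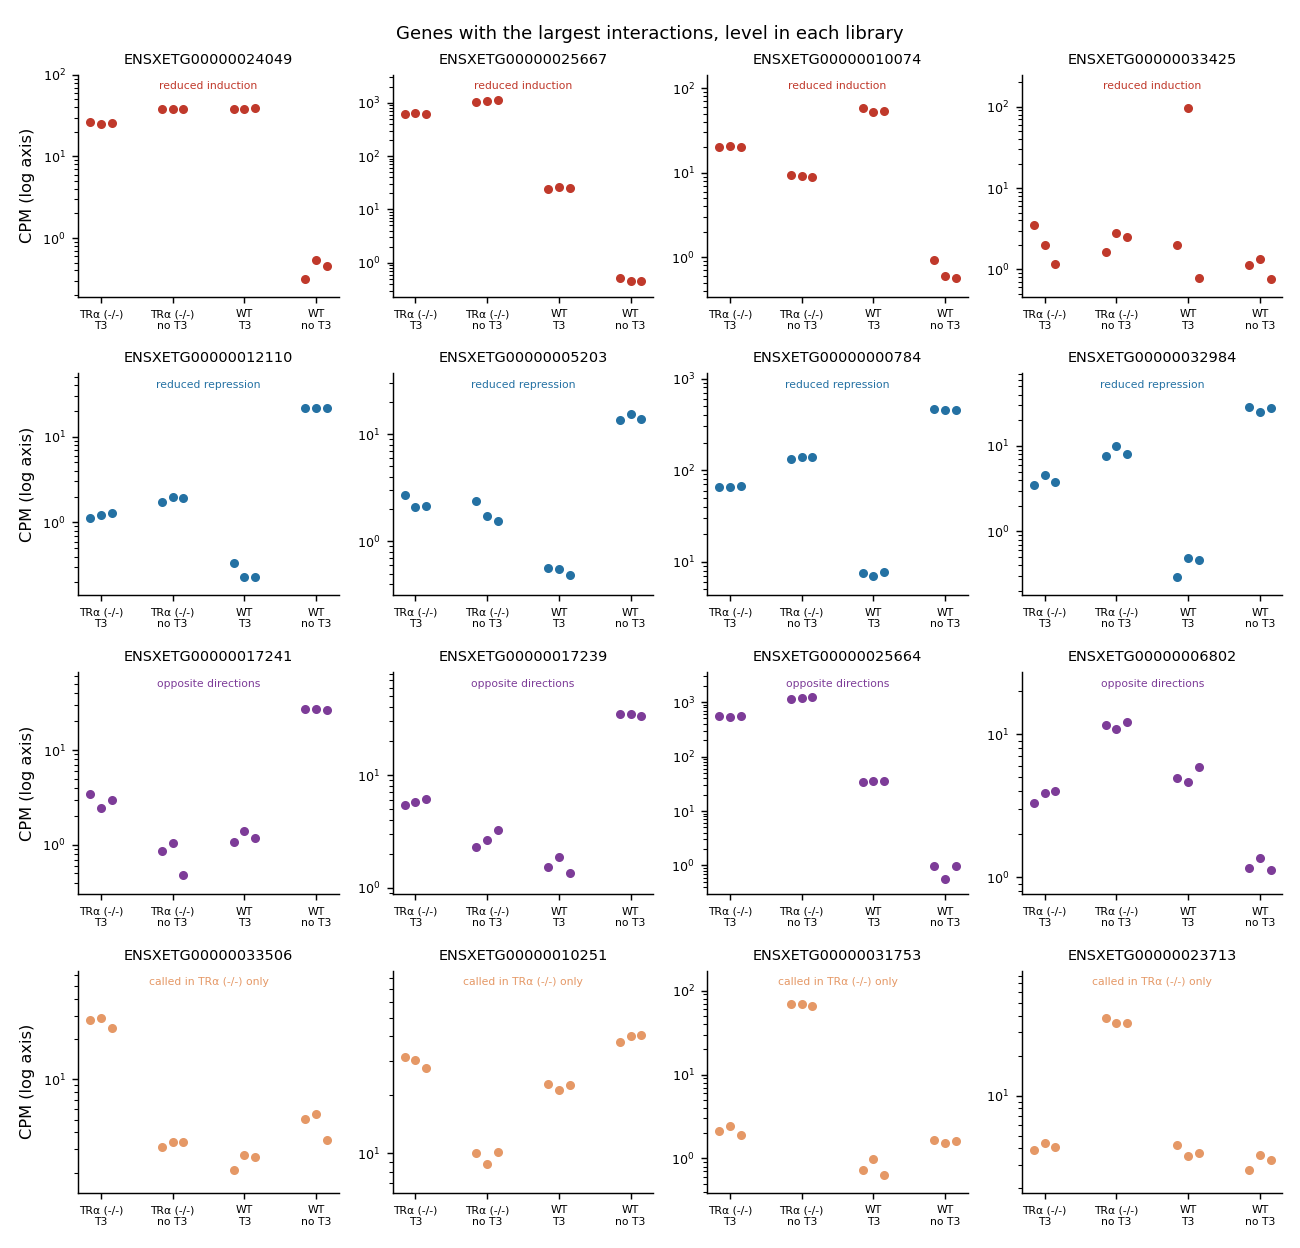
CPM on a log axis in each of the 12 libraries (points), by group from TRα (-/-) with T3 to WT without T3. The 16 genes come from reduced induction, reduced repression, opposite directions and called in TRα (-/-) only. Each was chosen within its own pattern for a large interaction, within the limits of 5 CPM and 10 counts. In the last 2 patterns the choice was made per direction. The genes are therefore not the 16 largest interactions within these limits. In ENSXETG00000033425 a single WT library with T3 lies at 97.7 CPM while the other 2 lie at 1.98 and 0.778.

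The 4 genes named for opposite responses fell on 3 scaffolds. ENSXETG00000017241 and ENSXETG00000017239 lie on scaffold GL173192.1, from 681870 to 703636 and from 649432 to 655106, both on the - strand. Values for ENSXETG00000017241 of 3.44, 2.46 and 2.95 CPM with T3 and 0.855, 1.04 and 0.484 CPM without T3 in TRα (-/-) stood against 1.08, 1.41 and 1.19 CPM with T3 and 27.2, 27.2 and 26.7 CPM without T3 in WT. The T3 change was 1.91 in TRα (-/-) and -4.44 in WT, and the interaction was 6.35 ± 0.215 (SE, edgeR adjusted p = 2.85e-19). ENSXETG00000017239 had 5.44, 5.72 and 6.18 CPM in the TRα (-/-) libraries with T3 and 2.30, 2.63 and 3.22 CPM in those without T3, against 1.52, 1.87 and 1.34 CPM in WT with T3 and 34.8, 35.1 and 33.7 CPM in WT without T3. T3 changed it by 1.07 in TRα (-/-) and -4.43 in WT, with an interaction of 5.50 ± 0.151. For both genes WT without T3 was far above every other group, and T3 moved the low TRα (-/-) level upward. The span of ENSXETG00000017239 overlaps another gene. ENSXETG00000025664 (GL172993.1, 939457 to 940502, - strand, 3 exon blocks) lies near ENSXETG00000025667, and whether these genes are copies that share reads was not tested. The CPM of ENSXETG00000025664 were 549.8, 544 and 546 in TRα (-/-) with T3, 1120.1, 1177 and 1223 in TRα (-/-) without T3, 34.3, 36.3 and 35.5 in WT with T3 and 0.982, 0.573 and 0.996 in WT without T3. The T3 change was -1.10 in TRα (-/-) and 5.36 in WT and the interaction -6.46 ± 0.0948, and as at its neighbour the TRα (-/-) groups lay above both WT groups. ENSXETG00000006802 (GL172672.1, 1113367 to 1205046, + strand, 42 exon blocks) was lowered in TRα (-/-) and raised in WT. With T3, ENSXETG00000006802 had 3.31, 3.91 and 4.04 CPM in TRα (-/-) and 4.95, 4.65 and 5.91 CPM in WT, and without T3 11.5, 10.9 and 12.1 CPM in TRα (-/-) and 1.17, 1.37 and 1.12 CPM in WT. After T3 the TRα (-/-) libraries were below those of WT, and before T3 above them, with an interaction of -3.70 ± 0.165.

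Among genes called in TRα (-/-) alone, ENSXETG00000033506 (GL172801.1, 888141 to 892519, - strand, 4 exon blocks) was raised. Values of 28.0, 28.6 and 24.4 CPM with T3 and 3.09, 3.42 and 3.39 CPM without T3 in TRα (-/-) stood against 2.10, 2.69 and 2.61 CPM with T3 and 5.005, 5.54 and 3.52 CPM without T3 in WT. The TRα (-/-) libraries with T3 stood above all others. The T3 change was 3.03 in TRα (-/-) and -0.89 in WT, the latter short of the 2-fold limit, and the interaction was 3.93 ± 0.180. ENSXETG00000010251 (GL172858.1, 133186 to 160641, + strand, 22 exon blocks) was raised to within the range set by the WT groups. It had 31.4, 30.1 and 27.3 CPM in the TRα (-/-) libraries with T3 and 10.0, 8.77 and 10.2 CPM in those without T3, against 22.8, 21.1 and 22.5 CPM in WT with T3 and 37.5, 40.0 and 40.5 CPM in WT without T3. The T3 change was 1.62 in TRα (-/-) and -0.84 in WT, and the interaction was 2.45 ± 0.0787. ENSXETG00000031753 (GL172687.1, 3147279 to 3156838, + strand, 8 exon blocks) was lowered. Its CPM were 2.10, 2.44 and 1.89 in TRα (-/-) with T3, 68.7, 68.4 and 64.9 in TRα (-/-) without T3, 0.728, 0.985 and 0.642 in WT with T3 and 1.65, 1.53 and 1.61 in WT without T3. T3 also lowered it in WT, by a log2 change of -0.98 just short of the 2-fold limit, against -4.96 in TRα (-/-). Its level was high in TRα (-/-) without T3 and low in the other groups, with an interaction of -3.98 ± 0.197 (SE, edgeR adjusted p = 9.32e-16). ENSXETG00000023713 (GL173322.1, 348812 to 358367, + strand, 6 exon blocks) had the same shape. Values of 3.88, 4.40 and 4.07 CPM with T3 and 38.3, 35.2 and 35.3 CPM without T3 in TRα (-/-) stood against 4.24, 3.49 and 3.68 CPM with T3 and 2.76, 3.598 and 3.24 CPM without T3 in WT. Its T3 change was -3.14 in TRα (-/-) and 0.24 in WT, with an interaction of -3.37 ± 0.136.

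The pattern stronger in TRα (-/-) needs calls in both genotypes in 1 direction. Within it and the limits of 5 CPM and 10 counts, the largest interaction was that of ENSXETG00000013238 (GL173025.1, 920062 to 923030, - strand, 4 exon blocks). It had 14.7, 15.2 and 14.1 CPM in the TRα (-/-) libraries with T3 and 301, 308 and 309 CPM in those without T3, against 4.22, 4.69 and 4.26 CPM in WT with T3 and 9.09, 9.93 and 10.3 CPM in WT without T3. T3 lowered it in both genotypes, by a log2 change of -4.38 in TRα (-/-) and -1.15 in WT, and the TRα (-/-) pool without T3 was above the other pools. The interaction was -3.23 ± 0.0810. ENSXETG00000006380 (GL173479.1, 207132 to 216782, - strand, 5 exon blocks) came next within these limits. Its CPM were 1.11, 1.22 and 1.22 in TRα (-/-) with T3, 12.01, 11.2 and 10.3 in TRα (-/-) without T3, 0.791, 0.565 and 0.584 in WT with T3 and 1.58, 1.43 and 1.66 in WT without T3. The interaction was -1.94 ± 0.223. ENSXETG00000004097 (GL172961.1, 1156508 to 1161648, + strand, 8 exon blocks) was the only raised gene of this pattern that met the count minimum. With T3, it had 23.6, 23.8 and 23.0 CPM in TRα (-/-) and 28.7, 29.3 and 29.6 CPM in WT, and without T3 4.90, 4.12 and 4.56 CPM in TRα (-/-) and 11.8, 11.4 and 11.4 CPM in WT. Its interaction of 1.04 ± 0.0822 was close to the 2-fold limit and was 0.62, not called, under total counts alone.

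Typical members were more modest than these extremes. The gene nearest the median interaction of reduced induction was ENSXETG00000003829 (GL172701.1, 144419 to 258238, - strand, 24 exon blocks), whose span overlaps another gene. Values of 18.0, 16.7 and 16.1 CPM with T3 and 13.8, 12.1 and 12.8 CPM without T3 in TRα (-/-) stood against 33.5, 31.8 and 30.3 CPM with T3 and 7.67, 8.12 and 6.999 CPM without T3 in WT. The groups did not overlap, and the interaction was -1.67 ± 0.0913. For reduced repression it was ENSXETG00000025130 (GL172679.1, 2779532 to 2849734, + strand, 3 exon blocks). It had 11.3, 12.6 and 10.3 CPM in the TRα (-/-) libraries with T3 and 9.01, 9.94 and 9.88 CPM in those without T3, against 9.13, 9.04 and 9.08 CPM in WT with T3 and 22.9, 23.7 and 23.7 CPM in WT without T3. Only WT without T3 stood clearly apart, and the interaction was 1.62 ± 0.0982.

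An interaction is by construction the genotype difference with T3 minus the genotype difference without T3. The calls of these differences were counted, and a state is said to carry the interaction where its difference was called. A difference just short of the call also contributes, so the counts do not measure shares. By absolute size, the difference without T3 was the larger at 77.9% of the genes of reduced induction and 37.2% of those of reduced repression. No test is given, as the parts sum to the whole. Over all tested genes, genotype was called at 20.3% without T3 and at 15.2% with T3, genes called in both states included. The patterns were chosen by the difference of these parts, so nothing is read from higher shares in them. For reduced induction, the genotypes differed without T3 only at 1011 of 1876 genes (53.9%), with T3 only at 165 (8.80%), in both states at 159 (8.48%) and in neither at 541 (28.8%). For reduced repression the order was the other way round, with 937 of 2230 genes (42.0%) differing with T3 only, 502 (22.5%) without T3 only, 220 (9.87%) in both and 571 (25.6%) in neither. The median genotype difference in log2 was -0.52 with T3 and 1.21 without T3 for reduced induction, and 1.06 with T3 and -0.66 without T3 for reduced repression. Of the genes differing in both states, the sign changed between them at 146 of 159 and at 182 of 220. Under DESeq2, reduced induction was carried without T3 only at 51.2% of its genes and with T3 only at 9.49%, and reduced repression at 24.2% without T3 only and 41.6% with T3 only.

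The contrast between the patterns depended on the scaling. With total counts alone, which shifts the genotype difference with T3 of all genes by a median of -0.51, reduced induction held 3301 genes, 24.3% of them carried without T3 only and 30.3% with T3 only. Reduced repression then held 1280 genes, 34.5% carried without T3 only and 31.8% with T3 only. In both patterns the more frequent state changed between the scalings. By absolute size, the difference without T3 was then the larger at 46.5% of the genes of reduced induction and 50.7% of those of reduced repression.

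**Figure D4:**
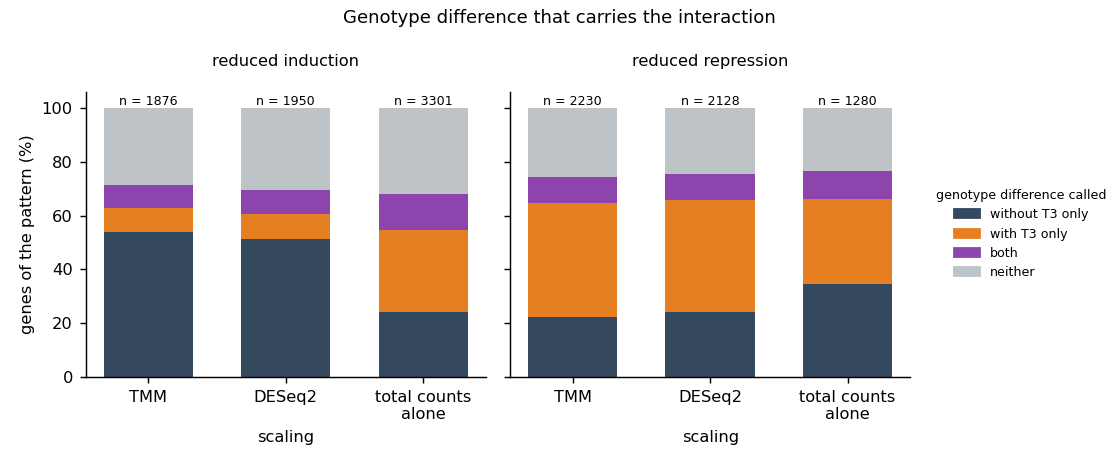
Share of the genes of each pattern (%, vertical) whose genotype difference was called without T3 only, with T3 only, in both states or in neither, under TMM, DESeq2 and total counts alone. The share carried without T3 only in reduced induction is 53.9% under TMM and 24.3% under total counts alone.

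Abundant genes were mostly lowered by T3 less in TRα (-/-) than in WT. Of the 100 genes with the highest mean CPM (not corrected for length), 80 were called, against 34.3% of all tested genes. The interaction was positive at 74, against 17.7% of all, and negative at 6, against 16.6%, and 73 of the 80 were genes of reduced repression. Their median T3 change was -0.31 in TRα (-/-) and -1.70 in WT. Under total counts alone 47 were positive and 12 negative, against 10.6% and 27.3% of all. ENSXETG00000021236 (GL173096.1, 131590 to 134900, + strand, 4 exon blocks) was the most abundant gene called with a positive interaction. Its CPM were 16136, 15394 and 14817 in TRα (-/-) with T3, 16319, 16271 and 16645 in TRα (-/-) without T3, 4272, 4503 and 4293 in WT with T3 and 17524, 17569 and 18306 in WT without T3. WT with T3 was far below the other 3 groups, and the interaction was 1.94 ± 0.0396. ENSXETG00000007220 (GL172810.1, 2026002 to 2028725, + strand, 7 exon blocks), whose span overlaps another gene, followed. Values of 14864, 14107 and 14503 CPM with T3 and 19592, 20695 and 22181 CPM without T3 in TRα (-/-) stood against 3498, 4036 and 4009.9 CPM with T3 and 14145, 13590.0 and 13209 CPM without T3 in WT. Its interaction of 1.304 ± 0.0595 was 0.89, not called, under total counts alone. ENSXETG00000025663 (GL172993.1, 952559 to 956327, - strand, 3 exon blocks) was the most abundant gene called with a negative interaction, next to the pair ENSXETG00000025667 and ENSXETG00000025664. It had 7002, 6977 and 6814 CPM in the TRα (-/-) libraries with T3 and 10223, 10514 and 10734 CPM in those without T3, against 7723, 8608 and 8156 CPM in WT with T3 and 4246, 4328 and 4366 CPM in WT without T3. Its T3 change was -0.60 in TRα (-/-) and 0.92 in WT, neither being 2-fold, and the interaction was -1.52 ± 0.0423. ENSXETG00000010707 (GL173462.1, 131588 to 137969, - strand, 7 exon blocks) came next among called genes. Its CPM were 6637, 6572 and 6184 in TRα (-/-) with T3, 6429.9, 6646 and 6620.2 in TRα (-/-) without T3, 5133, 5456 and 5136 in WT with T3 and 1836, 1812 and 1749.7 in WT without T3. The TRα (-/-) groups overlapped each other and WT without T3 stood below all, with an interaction of -1.56 ± 0.0425.

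Interaction calls were spread over all levels and gene structures. In 4 sets of 3580 genes ordered by mean CPM from low to high, 47.9%, 32.5%, 26.2% and 30.4% of the tested genes were called, against 34.3% of all. The share was 43.6% in the 629 genes of 1 exon block, 36.1% with 2 to 9, 32.5% with 10 to 24 and 28.5% in the 1503 genes with 25 or more. In 4 sets ordered by summed exon length from short to long it was 40.6%, 36.2%, 31.9% and 28.3%. Genes of low level and short genes overlap as sets, and their shares were not separated.

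The sign of the interaction was compared between neighbouring genes. Of 1487 pairs of consecutive tested genes on a scaffold that were both called, 899 (60.5%) had the same sign, where the share over all pairs of called genes was 50.04%. These pairs include overlapping genes and possible copies that share reads, and no test was made. Under total counts alone the shares were 70.4% and 59.6%. There were 27 runs of 4 or more consecutive tested genes called with 1 sign, 19 positive and 8 negative, and under total counts alone 11 positive and 58 negative. The longest held 11 genes on scaffold GL172699.1 from 305968 to 689625, all of reduced repression and 10 of them on the - strand. Their T3 changes ran from -1.63 to 0.09 in TRα (-/-) and from -6.96 to -1.55 in WT, with interactions from 1.41 to 6.28, and 10 of the 11 were called under total counts alone. Counts were low at several of them, among them the gene of the largest value, ENSXETG00000032075, with a mean of 0.0118 CPM in WT with T3, and 8 of 11 had at least 10 in every library. The best counted was ENSXETG00000011104 (GL172699.1, 570266 to 602846, - strand, 11 exon blocks), which overlaps its neighbour. With T3, it had 24.1, 23.5 and 23.7 CPM in TRα (-/-) and 4.87, 4.29 and 4.67 CPM in WT, and without T3 51.5, 52.1 and 54.2 CPM in TRα (-/-) and 100.3, 97.5 and 99.4 CPM in WT. The 4 groups did not overlap, and the interaction was 3.29 ± 0.0612 (SE, edgeR adjusted p = 2.01e-24). ENSXETG00000031898 (GL172699.1, 369707 to 382903, - strand, 10 exon blocks) was free of overlap. Values of 12.6, 12.8 and 13.9 CPM with T3 and 15.7, 14.9 and 14.9 CPM without T3 in TRα (-/-) stood against 2.12, 2.11 and 2.26 CPM with T3 and 34.0, 32.3 and 33.7 CPM without T3 in WT. Its interaction was 3.73 ± 0.0914 (SE, edgeR adjusted p = 3.84e-22). A run of 8 genes on scaffold GL173117.1 from 40496 to 381265, again all of reduced repression, had interactions from 1.70 to 4.65, and all 8 were called under total counts alone.

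The longest negative run held 5 genes of reduced induction on scaffold GL172883.1 from 243153 to 440755, with interactions from -1.65 to -1.02. Stronger values occurred in shorter runs, chosen here for their median interaction after it was seen. On scaffold GL172650.1 from 2259980 to 2317301, ENSXETG00000024049 closed a run of 4 genes of reduced induction, of which the first and second overlap and may share reads. The best counted of the run was ENSXETG00000024046 (GL172650.1, 2283129 to 2288104, + strand, 5 exon blocks). It had 532, 521 and 523 CPM in the TRα (-/-) libraries with T3 and 521, 522 and 533 CPM in those without T3, against 297, 298 and 302 CPM in WT with T3 and 18.8, 22.4 and 21.1 CPM in WT without T3. The T3 change was near 0 in TRα (-/-) and 3.85 in WT (log2), and the interaction was -3.85 ± 0.0602 (SE, edgeR adjusted p = 6.89e-26). On scaffold GL172646.1 from 5124826 to 5156897, 4 neighbours were lowered by T3 in TRα (-/-) alone. ENSXETG00000004489 had 18, 17 and 14 counts in the TRα (-/-) libraries with T3 and 549, 568 and 603 counts in those without T3, against 20, 17 and 17 counts in WT with T3 and 7, 8 and 6 counts in WT without T3. Its level was high in TRα (-/-) without T3 alone, and the interaction was -5.96 ± 0.360 (SE, edgeR adjusted p = 5.79e-14). The other 3 genes of this run had 23 to 56 counts per library in TRα (-/-) without T3 and 0 to 8 in every other library.

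The mitochondrial sequence gave the only genes that could be named. All 13 protein genes of the RefSeq annotation had an identical start and end in the file. They encode subunits of the respiratory chain and ATP synthase: ND1 to ND6 and ND4L of complex I, CYTB of complex III, COX1 to COX3 of complex IV, and ATP6 and ATP8 of ATP synthase. The interaction was negative at 13 of 13, where the median over all tested genes was 0.01. It was called as negative at 8, against 16.6% of all tested genes (34.3% in either direction). Genes on 1 mitochondrial strand, here all but ND6, are transcribed together, so the 13 are not independent. The T3 change was negative at 13 of 13 in TRα (-/-), from -0.73 to -0.18 in log2, and none reached 2-fold. In WT it was positive at 11 of 13 and called as raised at 4 (ATP8, ATP6, ND4L and ND6), where 22.8% of all tested genes were. ATP8 had 159, 164 and 127 CPM in the TRα (-/-) libraries with T3 and 243, 243 and 192 CPM in those without T3, against 199.5, 201 and 152 CPM in WT with T3 and 62.3, 66.8 and 61.5 CPM in WT without T3. WT without T3 lay below all other groups, and TRα (-/-) with T3 overlapped WT with T3. The interaction was -2.13 ± 0.132 (SE, edgeR adjusted p = 9.82e-14). ND4L had 78.3, 72.2 and 76.2 CPM in the TRα (-/-) libraries with T3 and 119, 123 and 115 CPM in those without T3, against 71.2, 75.5 and 67.5 CPM in WT with T3 and 36.5, 35.4 and 34.2 CPM in WT without T3. TRα (-/-) without T3 was highest, and the interaction was -1.67 ± 0.0641 (SE, edgeR adjusted p = 3.95e-18). ATP8 and ATP6, ND4L and ND4, and ND5 and ND6 overlap, the last pair on opposite strands, so their reads may be shared. COX1, the catalytic subunit of complex IV, differed least along with COX3. COX1 had 5078, 5064 and 4616 CPM in the TRα (-/-) libraries with T3 and 8346, 8274 and 7813 CPM in those without T3, against 3662, 3684 and 3378 CPM in WT with T3 and 5056, 5146 and 5260.5 CPM in WT without T3. The T3 change of COX1 was -0.73 in TRα (-/-) and -0.53 in WT, with an interaction of -0.20 ± 0.0501 (SE, edgeR adjusted p = 8.62e-04). Under total counts alone the WT changes of COX1 and COX3 became 0.01 and 0.20, and the interaction was negative at 13 of 13. That scaling moved the median interaction of all genes from 0.01 to -0.41, so negative signs were bound to stay and are no check.

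**Figure D5:**
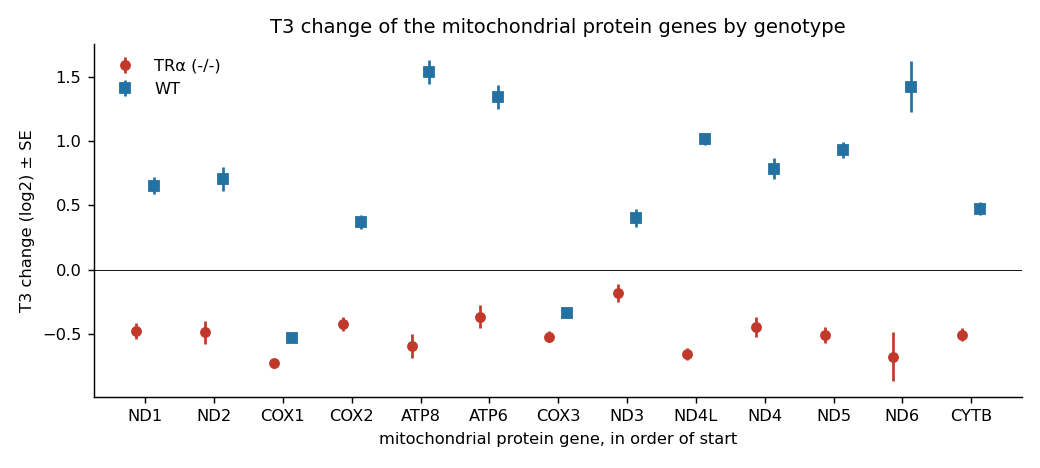
T3 change (log2, vertical, with SE between libraries) of the 13 mitochondrial protein genes in order of start (horizontal), in TRα (-/-) (circles) and WT (squares). The TRα (-/-) values lie below 0 at 13 of 13 genes, and the WT values lie above 0 at all but COX1 and COX3.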

How the data were processed

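Hind limb RNA of Xenopus tropicalis was poly-A selected and made into TruSeq libraries by the authors, who mapped paired-end reads to the Ensembl JGI 4.2 genome and counted them per gene over exons. The submitters' processing notes name STAR 2.5.3a and featureCounts 1.4.6-p3, and the published methods name other versions. The values deposited are raw counts per gene without normalization. Strand and multi-mapping settings are not given in the sources used here, so overlapping genes and close copies are uncertain. By gene span, 720 tested genes overlap another on either strand. Each of the 12 count columns was mapped to its library by name.

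edgeR 4.0.16 in R 4.3.3 was used with filterByExpr, TMM, glmQLFit and glmQLFTest, in 1 model of the 12 libraries and 4 groups, and p-values were adjusted by the Benjamini-Hochberg method over the 14320 genes tested. The SE of a log2 change is the change divided by the square root of its F statistic. CPM are counts scaled to the TMM-adjusted library total. The fit was tested before use on simulated libraries in which few genes changed. That test covers neither the choice of scaling nor the spread between pools. No library counted as a duplicate, since within a pool the chi-square of counts was 1.89 to 11.2 times its degrees of freedom.

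Named genes had an interaction call, 5 CPM in the highest group and 10 counts in every library. They are the 4 largest absolute interactions of reduced induction and of reduced repression, the largest 2 per direction of the opposite, TRα (-/-) only and stronger patterns, the 2 most abundant per sign and the gene nearest the median of both main patterns. The largest per sign without the count minimum was added, and gene runs had at least 4 genes. The members, lists and tests were chosen with earlier results of these data known. Alternatives were DESeq2 1.42.0, its size factors, total counts alone, 2 filters, the replicate number as a block, 3 call rules, summed pools with an assumed BCV, the linear scale and leaving out each of the 12 libraries. Mitochondrial names come from RefSeq (UCB_Xtro_10.0), matched by start and end on the mitochondrial sequence, which the file names by its own RefSeq record. Lists by symbol and cell type markers were not used here, since 0 identifiers matched. No nuclear sequence is shown, as no genome of the file's build was used here.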

Additional observations from a re-analysis of the deposited data

Results flagged for a closer look

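The T3 response differed between TRα (-/-) and WT by the test of the interaction itself, with 2529 genes higher and 2377 lower in TRα (-/-) than in WT by that measure. Each of the 26 named genes was chosen with such a call, so these values are no independent evidence. In log2 units, TRα (-/-) minus WT, the negative differences were those of ENSXETG00000024049 (-7.02), ENSXETG00000025667 (-6.53), ENSXETG00000010074 (-5.16), ENSXETG00000033425 (-5.04), ENSXETG00000013238 (-3.23), ENSXETG00000006380 (-1.94), ENSXETG00000025664 (-6.46), ENSXETG00000006802 (-3.70), ENSXETG00000031753 (-3.98), ENSXETG00000023713 (-3.37), ENSXETG00000025663 (-1.52), ENSXETG00000010707 (-1.56) and ENSXETG00000003829 (-1.67).

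The positive differences were those of ENSXETG00000012110 (5.72), ENSXETG00000005203 (5.05), ENSXETG00000000784 (4.90), ENSXETG00000032984 (4.85), ENSXETG00000004097 (1.04), ENSXETG00000017241 (6.35), ENSXETG00000017239 (5.50), ENSXETG00000033506 (3.93), ENSXETG00000010251 (2.45), ENSXETG00000021236 (1.94), ENSXETG00000007220 (1.304), ENSXETG00000025130 (1.62) and ENSXETG00000022374 (7.37). ENSXETG00000033425 stands on the list through 1 library, and without replicate 2 of WT with T3 its value was -0.38.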

How the results depend on the processing

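Under DESeq2 and its size factors each count of interaction calls lay within 1.5 times of that reported, and the majority sign changed, with 2411 positive and 2443 negative genes under DESeq2. DESeq2 shared 4744 of the 4906 calls. Total counts alone gave 1523 positive and 3910 negative genes, 3301 of reduced induction, 1280 of reduced repression and 12 stronger in TRα (-/-). At least 10 counts in every library left 9 stronger and 49 opposite genes. The adjusted p alone gave 5649 positive and 5461 negative genes, 4-fold or more gave 717 and 741, and an assumed BCV between pools of 0.2 gave 1179 and 1105. A BCV of 0.4 gave 30 and 41, with 38 genes of reduced induction, 30 of reduced repression, 0 opposite, 2 called in TRα (-/-) only, 0 stronger and 1 called in neither alone when patterns were assigned anew. By the patterns as reported, 32 genes of reduced induction, 23 of reduced repression and 15 opposite ones were still called for the interaction. These libraries do not give the spread between pools, which sets how many genes pass.

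With any 1 library left out and the filter on counts applied anew, there were 2521 to 2565 positive and 2363 to 2411 negative genes. Of the 4906 calls, 122 to 174 were lost, the most without replicate 3 of WT without T3. On the linear scale (difference of differences of mean CPM) 4865 of the 4906 genes kept their sign and 41 did not. Over 20 alternatives the interactions of the 26 named genes kept their sign (ENSXETG00000022374 has no value with at least 10 counts in every library), and 25 of their values were no longer called, 14 of them at a BCV of 0.4.

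Over all tested genes no clear pairing by replicate number was seen. Correlations of deviations lay between -0.142 and 0.187 for the 18 same-numbered pairs and exceeded 0.1 for 3. That measure cannot exclude pairing at single genes. By CPM, replicate 3 was the lowest library of each group at ND2, COX2, ATP8, ATP6, ND4, ND5 and CYTB. It was not so at the other mitochondrial protein genes. A replicate block gave 2532 positive and 2371 negative genes, and every named gene was still called.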
